A study of Mus musculus with 8 samples.

Results

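The capillaries of the lung alveoli consist of 2 kinds of endothelial cell, and 10 genes that mark them were followed in tumor endothelial cells (TECs) with and without a full dose of Foxf1. The 6 aerocyte genes were Car4, Ednrb, Apln, Tbx2, Prx and Emp2, and the 4 general capillary genes were Aplnr, Gpihbp1, Kit and Hpgd. The members were found by gene symbol, and all 10 of them were among the 33641 symbols of the expression tables and among the 14964 genes with enough signal to be tested. The comparison asked whether the capillary genes, and the balance of the aerocyte and the general capillary genes, differed between control and Foxf1-deficient TECs.

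RNA-seq was performed on cells of orthotopic lung tumors, made by injecting Lewis lung carcinoma (LLC) cells, a mouse lung tumor line, into the left lung of mice aged 6 to 8 weeks. Tumors were microdissected at day 21 and cells negative for the leukocyte antigen CD45 and positive for the endothelial antigen CD31 were sorted, giving 4 control libraries (C1 to C4) and 4 endFoxf1+/- libraries (H1 to H4). In endFoxf1+/- mice, which carry Pdgfb-iCreER and Foxf1 fl/+, tamoxifen activates a Cre recombinase expressed from the Pdgfb promoter, and exon 1 of 1 Foxf1 allele is removed in endothelial cells, so the other allele is intact and cells in which Cre did not act keep both. The labels describe the controls only as control, and the methods give them in more than 1 way (Foxf1 fl/+ or Pdgfb-Cre littermates, or C57Bl/6 wild-type mice), so the alleles of each control library are not given in the sources used here. Mice of the tumor model are described as treated with tamoxifen, which is not stated library by library. The sources also do not say whether a library is 1 mouse or a pool, so the p-values measure the spread between these samples, and TPM, transcript levels divided by length and scaled to the same total in each library, hold no information on sequencing depth.

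Aerocytes are large, thin endothelial cells spread over the gas-exchange surface, and they carry the carbonic anhydrase Car4 on their membrane. General capillary cells are the smaller partner. They serve as progenitors in capillary repair, carry the receptor tyrosine kinase Kit, and hold the lipase that clears plasma triglycerides. The 2 cell types are also coupled by a ligand and its receptor, since aerocytes make apelin (Apln) and general capillary cells carry the apelin receptor (Aplnr). FOXF1 is a forkhead transcription factor of lung endothelium, and its loss in humans causes a disorder in which alveolar capillaries are sparse.

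The libraries did not hold the same amount of endothelial RNA. The geometric mean TPM of 20 pan-endothelial markers lay between 86.4 and 109% of its control average in C1 to C4 and was 108% in H1 and 107% in H2, but 60.6% in H4 and 5.92% in H3. Summed TPM of 10 myeloid markers ranged from 1516 to 5251 in controls and was 2756 in H1, 2083 in H2, 4841 in H4 and 10124 in H3, most of it from Lyz2, which alveolar epithelium also makes (1351 to 4955 TPM in controls, 6870 in H3 and 4476 in H4). The leukocyte gene Ptprc, which encodes CD45, was 2.94 to 9.13 TPM in controls, 16.5 in H1, 9.93 in H2, 6.61 in H4 and 91.2 in H3, so that H4 was within the control range, H1 and H2 somewhat above it and H3 far above it. The macrophage gene Cd68 was 25.9 to 57.5 TPM in controls and 60.9, 106, 522 and 89.8 TPM in H1 to H4, above every control in each library. It was the 1 of the 10 myeloid genes with such a separation, against 2.73% of all tested genes. All 10 myeloid genes had a higher mean in endFoxf1+/- libraries, where 68% of all tested genes had a lower one. Summed TPM of 10 fibroblast and mural markers was 73.9 to 145 in controls, 197 in H1, 127 in H2, 312 in H4 and 1346 in H3. Of these 10, Col3a1, Dcn and Lum were above every control in all 4 endFoxf1+/- libraries, against 2.73% of all tested genes. Dcn was 7.64 to 22.7 TPM in controls and 47.2, 36.6, 533 and 82.6 TPM in H1 to H4. In all, 7 of the 10 fibroblast and mural genes had a higher and 3 a lower mean. The pericyte gene Rgs5 was below every control in all 4 endFoxf1+/- libraries (10.7 to 18.9 TPM against 0.602 to 6.66 TPM), as were 2.31% of all tested genes. Lyz2, Ptprc, Cd68, Col3a1, Dcn, Lum and Rgs5 were picked from their lists after their values were seen. Over all tested genes, the median Pearson correlation of H3 with the other libraries was 0.795 and that of H4 was 0.892, against 0.958 to 0.968 for the remaining 6, and no 2 libraries were identical. H3 therefore stood apart, and the comparisons of the members are given with and without it, and also relative to the endothelial markers of the same library. In sorted bulk samples, fewer cells of a type and less RNA per cell cannot be told apart, and the part of the other cell types in the differences was not tested.

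Foxf1, the targeted gene, was lower in every endFoxf1+/- library. Its level was 213, 285, 296 and 331 TPM in C1 to C4 and 177, 203, 14 and 105 TPM in H1 to H4. The groups did not overlap, with means of 281 ± 49.5 and 125 ± 84.6 TPM (SD, n = 4 each) and a log2 difference of -1.68 (SE 0.72, p = 0.0286 by an exact two-sided permutation test over 70 assignments, the smallest p that 4 against 4 can give; limma adjusted p = 0.790). Without H3 the difference was -0.83 (exact permutation p = 0.0571), and relative to the endothelial markers it was -0.56 (exact permutation p = 0.0571).

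Most members were abundant in control TECs. Of all 33641 symbols, Car4 ranked 75 by mean control TPM, Hpgd 83 and Gpihbp1 106, near the endothelial adhesion molecule Pecam1 at 93, while Aplnr was the lowest member at rank 2362. Together the 10 genes made up 0.501 to 0.621% of all TPM in the controls and 0.0277 to 0.425% in the endFoxf1+/- libraries. In control libraries the order by mean TPM was Car4 (1389 ± 275), Hpgd (1326 ± 130), Gpihbp1 (1142 ± 200), Emp2 (618 ± 138), Prx (213 ± 62.0), Ednrb (199 ± 75.6), Kit (195 ± 55.8), Apln (129 ± 26.2), Tbx2 (80.7 ± 24.5) and Aplnr (62.7 ± 14.2; SD, n = 4). The ranges of mean ± SD of neighbours in this order overlapped except for Gpihbp1 and Emp2 and for Emp2 and Prx. In the endFoxf1+/- libraries Gpihbp1 had the highest mean (864 ± 643 TPM), followed by Car4 (543 ± 369 TPM), Emp2 (338 ± 219 TPM) and Hpgd (302 ± 260 TPM), with SDs that overlapped.

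**Figure D1:**
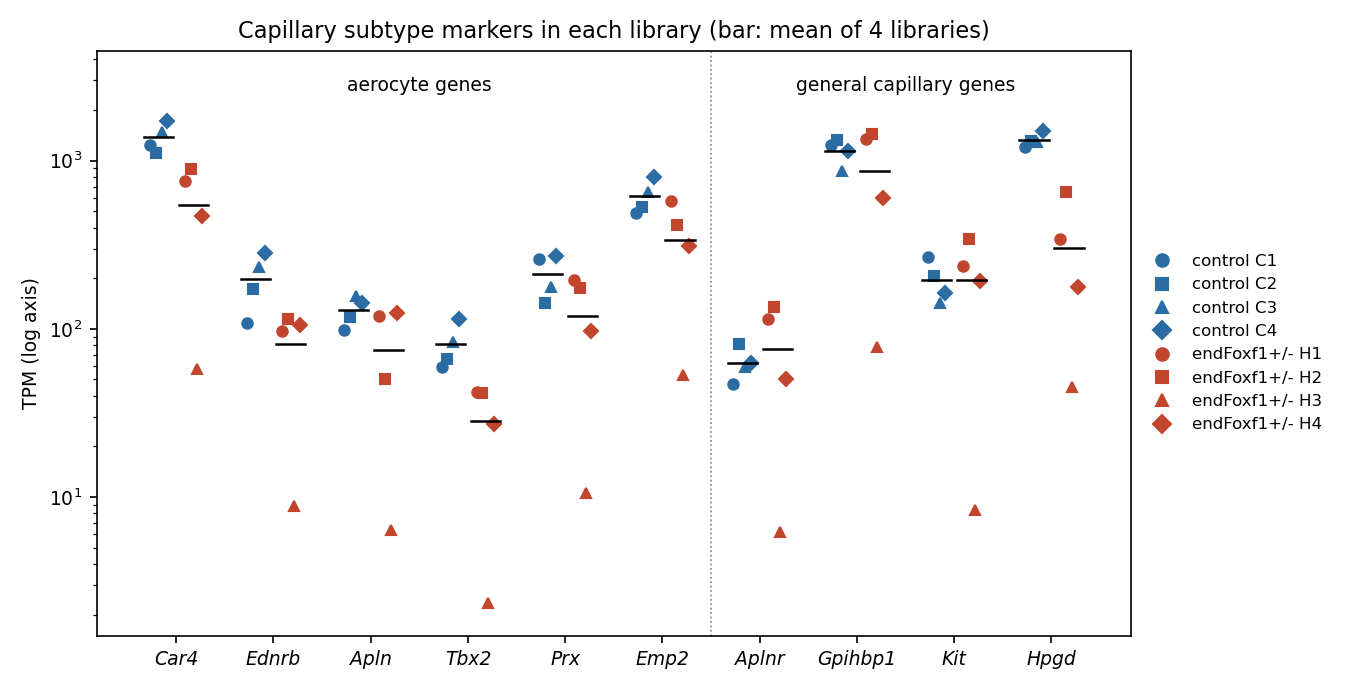
TPM of the 10 capillary genes on a log axis, by library, with circles, squares, triangles and diamonds for libraries 1 to 4 of each group (control blue, endFoxf1+/- red) and a bar at the mean of 4 libraries. Library H3 is the lowest point for every gene, and for Car4, Tbx2 and Hpgd all endFoxf1+/- points lie below all control points.

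No member passed the limma test across the table, and no tested gene did either (0 of 14964, 0% at an adjusted p under 0.05, where 836 genes had an unadjusted p under 0.05). All 10 members had a lower mean log2(TPM + 1) in endFoxf1+/- TECs, as did 68% of all tested genes. Without H3, 8 of 10 members and 48.4% of the tested genes were lower. An unadjusted p under 0.05 in the lower direction was found for 4 of 10 members (Car4, Ednrb, Tbx2 and Hpgd), against 2.77% of all tested genes, and 3 of 10 (Car4, Tbx2 and Hpgd) had every endFoxf1+/- library below every control, against 2.31% of all tested genes. In the higher direction 0 members were counted by either rule, against 2.82% and 2.73% of all tested genes. Without H3 the same 4 and the same 3 members were counted as lower, against 2.35% and 2.62% of all tested genes, and again 0 as higher, against 4.81% and 6.46%. Without C3 or without C4, Hpgd was the 1 member with an unadjusted p under 0.05, where 471 of 14700 and 468 of 14771 tested genes were under it. The exact permutation p was then 0.0857 for Car4 and Tbx2 and 0.0571 for Hpgd. Groups that are separate with all 8 libraries stay so when any library is left out. The separation of Car4, Tbx2 and Hpgd in such settings, also without H3, is therefore no further result. Without H3 and H4, Aplnr and Gpihbp1 were separate in the higher direction, and Aplnr had an unadjusted limma p of 0.00131 there and of 0.0116 with array weights (adjusted p = 0.220 and 0.151). In these settings 29% and 30.7% of all tested genes were lower, and 1782 of 14578 and 2866 of 14964 had an unadjusted p under 0.05 in either direction. The share of all tested genes separate in the higher direction without H3 and H4 was not counted. The separation of Aplnr and Gpihbp1 there therefore cannot be read as more or less than usual.

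Car4, the carbonic anhydrase that faces the capillary lumen, is encoded on chromosome 11 (GRCm38, 84957786 to 84966044, plus strand). Its level was 1243, 1104, 1477 and 1730 TPM in C1 to C4 and 762, 888, 57.5 and 467 TPM in H1 to H4. The groups were separate, and the endFoxf1+/- mean was 39.1% of the control mean. The log2 difference was -1.89 (SE 0.76, 95% interval -3.61 to -0.18; exact permutation p = 0.0286, limma unadjusted p = 0.0341 and adjusted p = 0.790). Leaving out H3 gave -1.01 (exact permutation p = 0.0286).

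Tbx2, a T-box transcription factor also carried by chromosome 11 (85832551 to 85841948, plus strand), showed the same separation at a lower level. It was 59.0, 66.6, 83.1 and 114 TPM in C1 to C4 and 41.9, 41.8, 2.34 and 27.0 TPM in H1 to H4. H1 and H2, whose endothelial marker level was as high as in controls, were both below the lowest control. The log2 difference was -1.96 (SE 0.74, 95% interval -3.63 to -0.29; exact permutation p = 0.0286, limma unadjusted p = 0.0258 and adjusted p = 0.790), and -1.09 without H3 (exact permutation p = 0.0286).

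Ednrb, the type B receptor for endothelins, is on chromosome 14 (103814625 to 103844402, minus strand). It was 108, 172, 234 and 282 TPM in C1 to C4 and 97.0, 115, 8.87 and 106 TPM in H1 to H4. H1, H3 and H4 were below the lowest control, and H2 was between C1 and C2. The log2 difference was -1.68 (SE 0.75, 95% interval -3.36 to -0.0021; exact permutation p = 0.0571, limma adjusted p = 0.790), and without H3 it was -0.82 (exact permutation p = 0.0857).

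The remaining aerocyte genes overlapped between the groups. Apln, which encodes the peptide ligand apelin on chromosome X (48025146 to 48034853, minus strand), was 98.9, 117, 157 and 143 TPM in C1 to C4 and 119, 50.4, 6.34 and 123 TPM in H1 to H4. H1 and H4 lay within the control range and H2 and H3 below it. For Apln the log2 difference was -1.40 (SE 0.79, 95% interval -3.17 to 0.38; exact permutation p = 0.200), and -0.49 without H3 (exact permutation p = 0.286).

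Prx, which encodes periaxin, a scaffold protein of the membrane cytoskeleton best known from myelinating Schwann cells, is on chromosome 7 (27499324 to 27520214, plus strand). It was 260, 143, 178 and 270 TPM in C1 to C4 and 196, 174, 10.5 and 96.9 TPM in H1 to H4, so that H1 and H2 were within the control range. Prx differed by -1.39 on the log2 scale (SE 0.80, 95% interval -3.18 to 0.40; exact permutation p = 0.143), and -0.46 without H3. Prx overlaps a gene model on the other strand in the annotation, and the library kit does not mark strand, so reads of the 2 cannot be told apart. The 5 Schwann cell markers summed to 5.42 to 8.46 TPM in controls and 5.97 to 15.3 TPM in endFoxf1+/- libraries.

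Emp2, a tetraspan membrane protein found in alveolar epithelium as well as in capillaries, is on chromosome 16 (10281749 to 10313968, minus strand). It was 489, 533, 653 and 797 TPM in C1 to C4 and 574, 416, 53.5 and 309 TPM in H1 to H4, with H1 inside the control range and the others below it. Emp2 differed by -1.27 on the log2 scale (SE 0.65, 95% interval -2.73 to 0.19; exact permutation p = 0.0857), and -0.53 without H3. The 10 alveolar epithelial markers summed to 6208 to 29320 TPM in controls and to 10223, 2498, 1430 and 22240 TPM in H1 to H4, a range that did not follow the groups.

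Of the general capillary genes, Hpgd differed most from control. It encodes the enzyme that inactivates prostaglandins by oxidizing their 15-hydroxyl group, and lies on chromosome 8 (56294585 to 56321043, plus strand). Its level was 1200, 1316, 1282 and 1506 TPM in C1 to C4 and 340, 649, 45.0 and 176 TPM in H1 to H4. The control libraries lay close together, and the highest endFoxf1+/- library was far below the lowest of them. The endFoxf1+/- mean was 22.8% of the control mean, with a log2 difference of -2.68 (SE 0.69, 95% interval -4.22 to -1.14; exact permutation p = 0.0286, limma unadjusted p = 0.00323 and adjusted p = 0.790). Without H3 the difference was -1.96 (exact permutation p = 0.0286). A gene model on the same strand overlaps Hpgd in the annotation, and its share of the reads was not tested.

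Gpihbp1, which carries lipoprotein lipase to the capillary lumen, lies on chromosome 15 (75596628 to 75599481, plus strand). It was 1240, 1324, 865 and 1137 TPM in C1 to C4 and 1338, 1437, 78.0 and 603 TPM in H1 to H4. H1 and H2 were above every control and H3 and H4 below every control. Gpihbp1 differed by -1.04 on the log2 scale (SE 0.82, 95% interval -2.87 to 0.80; exact permutation p = 0.429), and -0.10 without H3 (exact permutation p = 0.829).

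Kit, the receptor for stem cell factor on chromosome 5 (75574916 to 75656722, plus strand), had nearly equal group means of 195 ± 55.8 and 195 ± 139 TPM (SD, n = 4 each). It was 268, 207, 142 and 162 TPM in C1 to C4 and 238, 342, 8.35 and 191 TPM in H1 to H4. H2 was the highest and H3 the lowest of the 8 libraries. The log2 difference was -0.79 with all libraries (SE 0.98, 95% interval -3.0 to 1.42; exact permutation p = 0.886) and 0.40 without H3 (exact permutation p = 0.257), so its sign depended on that library. Kit is also made by mast cells, whose 6 markers summed to 0.958 to 6.18 TPM in controls and 0.874 to 8.43 TPM in endFoxf1+/- libraries, with none of the 6 passing the filter on low values.

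Aplnr, the receptor for apelin on chromosome 2 (85136225 to 85139923, plus strand), was 46.8, 81.2, 59.7 and 63.0 TPM in C1 to C4 and 115, 134, 6.18 and 50.2 TPM in H1 to H4. H1 and H2 were above every control, H4 was inside the control range and H3 far below it. Aplnr differed by -0.35 on the log2 scale (SE 0.80, 95% interval -2.16 to 1.46; exact permutation p = 0.914) and turned to 0.57 without H3 (exact permutation p = 0.257).

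**Figure D2:**
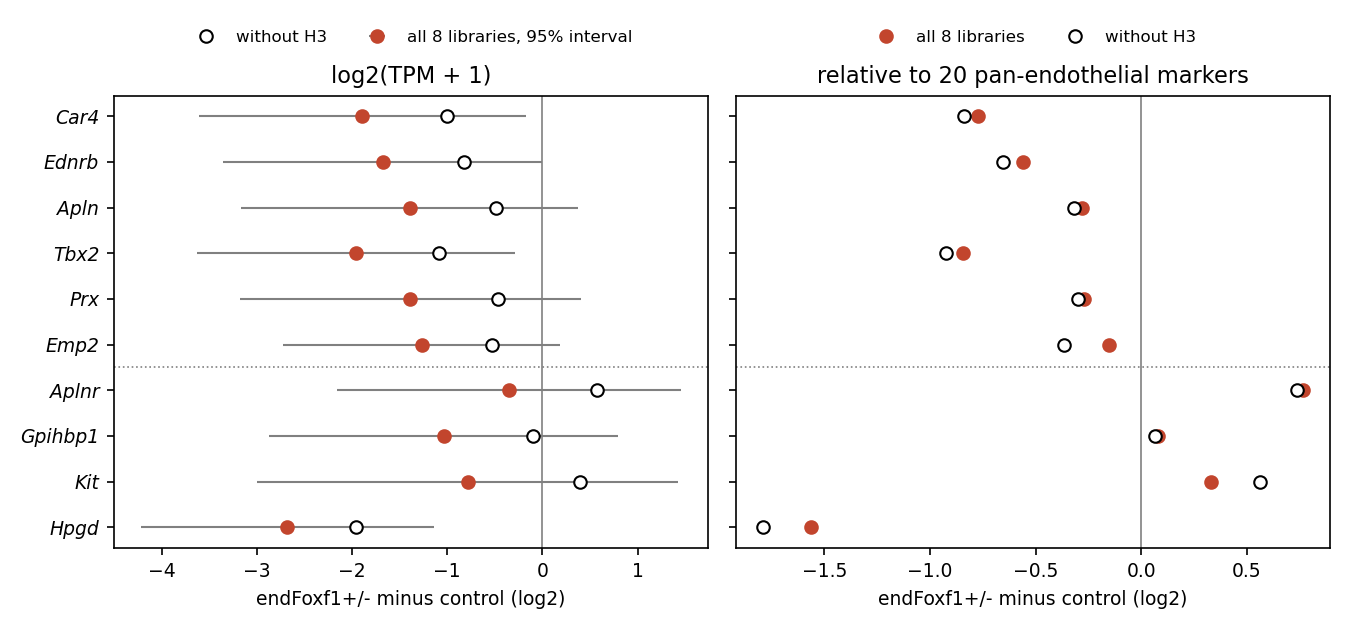
Difference between endFoxf1+/- and control libraries in log2 units for each of the 10 genes, with all 8 libraries (red) and without H3 (open), on the log2(TPM + 1) scale with its 95% limma interval (left) and relative to 20 pan-endothelial markers of the same library (right). The aerocyte genes and Hpgd lie below 0 in both panels, and Aplnr lies at 0.77 in the right panel.

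Set against the pan-endothelial markers of the same library, where a shift shared by all endothelial genes cancels, Car4, Tbx2 and Hpgd were again lower in all 4 endFoxf1+/- libraries. The ratio of Car4 TPM to the geometric mean TPM of the 20 markers was 2.87, 2.69, 4.14 and 3.83 in C1 to C4 and 1.71, 2.01, 2.35 and 1.87 in H1 to H4. H3, the library with the least endothelial RNA, had the highest of the 4 endFoxf1+/- ratios, which all remained below the lowest control. For Tbx2 the ratio was 0.136, 0.162, 0.233 and 0.253 in controls and varied little, from 0.0942 to 0.108, in endFoxf1+/- libraries. For Hpgd it was 2.77, 3.20, 3.59 and 3.34 in controls and 0.765, 1.47, 1.84 and 0.704 in H1 to H4.

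On the log2(TPM + 1) scale, the difference relative to the endothelial markers was -0.77 for Car4, -0.84 for Tbx2 and -1.56 for Hpgd, each with all 4 endFoxf1+/- libraries below all controls (exact permutation p = 0.0286 for each gene, unadjusted over the 10 members). On this scale 0.0869% of all tested genes were separate in the lower direction, and 2.02% without H3. These shares include genes of other cell types, whose values rise on this scale where the endothelial level is low, as in H3. Myeloid markers had a median difference of 2.57 and fibroblast and mural markers of 1.76, so the shares are no rate for endothelial genes. Without H3, which cannot undo a separation, the exact permutation p was 0.0286 for Car4 and Hpgd and 0.0571 for Tbx2. Of the 20 reference markers themselves, Cldn5 and Icam2 were separate in the lower and Emcn and Cd34 in the higher direction, 4 genes named after their values were seen. Among 8 venous markers 1 was separate and lower (Vwf, -0.90, also named after its values were seen) and 0 higher. Among 10 arterial markers 0 were separate and lower and 3 higher. Ednrb was lower by a log2 difference of -0.56 with overlapping groups (exact permutation p = 0.229), and Apln (-0.28), Prx (-0.27) and Emp2 (-0.15) also overlapped. Without H3 these 4 differences were -0.65, -0.32, -0.30 and -0.37.

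Aplnr was separate in the higher direction relative to the endothelial markers. Its ratio to their geometric mean was 0.108, 0.198, 0.167 and 0.140 in C1 to C4 and 0.258, 0.304, 0.253 and 0.200 in H1 to H4. All 4 endFoxf1+/- libraries exceeded all controls, although the gap between H4 and C2 was small. The log2 difference relative to the markers was 0.77 (exact permutation p = 0.0286), and 0.74 without H3 (exact permutation p = 0.0571), and 8.17% of all tested genes, or 8.19% without H3, were separate in this direction. Gpihbp1, at 0.08 (exact permutation p = 0.514), and Kit, at 0.33 (exact permutation p = 0.343), overlapped between the groups (0.07 and 0.57 without H3), the ratio of Gpihbp1 being 2.42 to 3.22 in controls and 2.41 to 3.25 in endFoxf1+/- libraries.

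**Figure D3:**
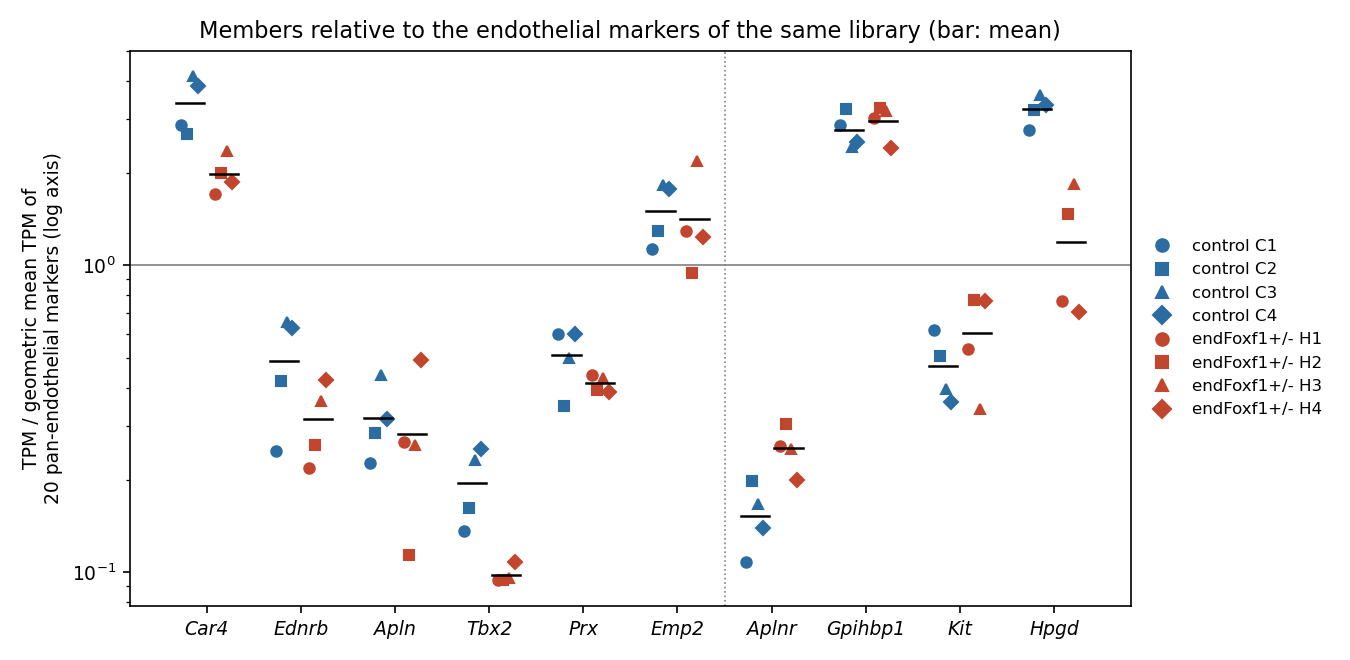
TPM of each capillary gene divided by the geometric mean TPM of 20 pan-endothelial markers in the same library, on a log axis, with the libraries marked by shape as before and a bar at the mean. The ratio of H3 lies between those of other endFoxf1+/- libraries for 6 of the 10 genes, the ratios of Car4, Tbx2 and Hpgd are below those of all controls, and those of Aplnr are above them.

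The balance of the subtypes was taken within each library as the mean log2(TPM + 1) of the 6 aerocyte genes minus that of the 4 general capillary genes. It was -0.78, -0.91, -0.13 and -0.07 in C1 to C4 and -0.84, -1.51, -0.63 and -0.45 in H1 to H4. Only H2 lay below all controls, and the difference of the group means, -0.38 (-0.46 without H3), was of the size of the SDs (0.43 in controls and 0.47 in endFoxf1+/- libraries). Without H3 and H4 it was -0.70, and without H2 it was -0.16. As a description with no test, the aerocyte mean differed by -1.60 (-0.73 without H3, with all endFoxf1+/- libraries below the controls) and the general capillary mean by -1.21 (-0.27 without H3, with overlap), while the mean of the pan-endothelial markers differed by -1.12 (-0.17 without H3). Relative to those markers the aerocyte mean differed by -0.48 (-0.57 without H3), with 2 of 4 endFoxf1+/- libraries below all controls, and the general capillary mean by -0.10 (-0.11 without H3).

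Hpgd, the general capillary gene that was lowest relative to control, weighed on this balance. Without it, a choice made after its values were seen, the balance was -0.21, -0.36, 0.55 and 0.61 in C1 to C4 and -0.83, -1.34, -0.28 and -0.46 in H1 to H4. H1, H2 and H4 were then below all controls and H3 was between C2 and C1, and the group means differed by -0.87 (-1.02 without H3).

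Single pairs of genes showed the same dependence on Hpgd. The TPM of Car4 divided by that of Gpihbp1 was 1.003, 0.834, 1.71 and 1.52 in C1 to C4 and 0.569, 0.618, 0.737 and 0.775 in H1 to H4. Every endFoxf1+/- library was below every control, H3 included. Of the 18 ratios of an aerocyte gene to Aplnr, Gpihbp1 or Kit, 18 had a lower mean log2 value in endFoxf1+/- libraries (differences of -1.70 to -0.24), and in 5 of them the groups did not overlap. Of the 6 ratios of an aerocyte gene to Hpgd, 6 had a higher mean (differences of 0.59 to 1.42), and in 3 of them the groups did not overlap. These ratios share genes and libraries and are not independent of each other. Their mean differences follow from those of the single genes given above. No share over other pairs of genes was counted, so the numbers of separate ratios cannot be read as more or fewer than usual.

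Among the general capillary genes themselves, the TPM of Hpgd divided by that of Gpihbp1 was 0.968, 0.994, 1.48 and 1.32 in C1 to C4 and 0.254, 0.451, 0.578 and 0.292 in H1 to H4, again without overlap. The ligand and receptor pair of apelin was less clear. Apln TPM divided by Aplnr TPM was 2.11, 1.44, 2.64 and 2.27 in C1 to C4 and 1.03, 0.376, 1.03 and 2.46 in H1 to H4, so that 3 libraries were below all controls and H4 was inside their range.

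**Figure D4:**
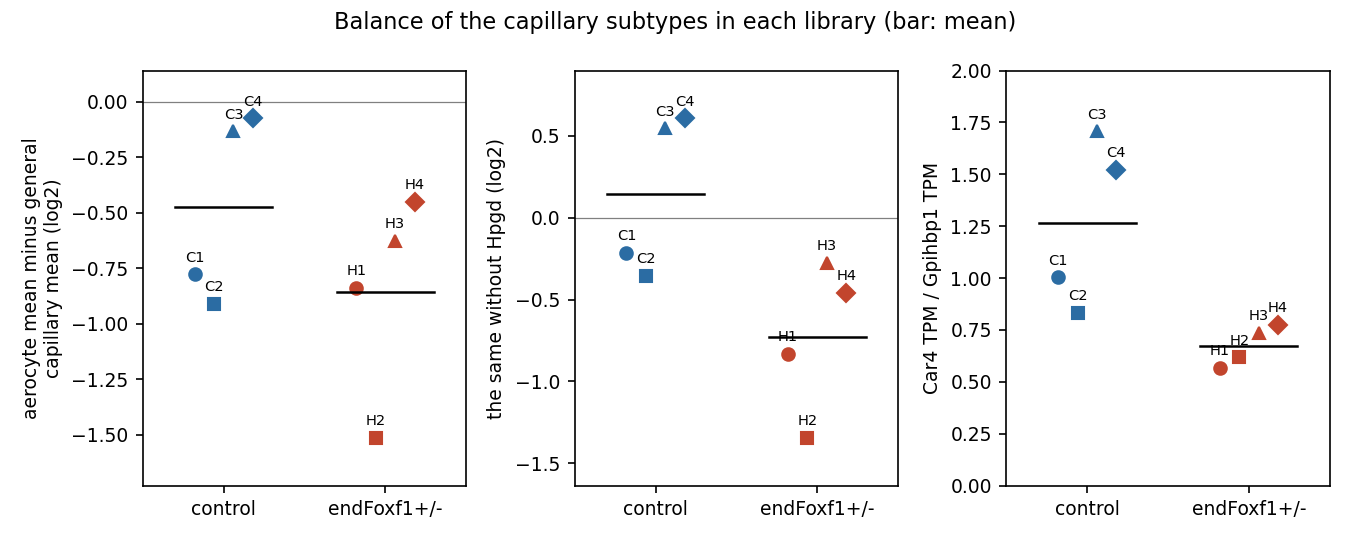
Balance of the aerocyte and general capillary genes in each library in log2 units with all members (left) and without Hpgd (middle), and the ratio of Car4 to Gpihbp1 TPM on a linear axis from 0 (right), with a bar at the mean of 4 libraries. The groups overlap on the left, C2 and H3 overlap in the middle, and all endFoxf1+/- ratios on the right lie below the lowest control, 0.834.

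Correlations between members, given as a description, showed how far H3 shaped their likeness. Over 8 libraries the median Pearson r of log2(TPM + 1) was 0.967 for the 15 pairs of aerocyte genes, 0.890 for the 6 pairs of general capillary genes and 0.872 for the 24 mixed pairs. Over the 7 libraries without H3 it was 0.740, 0.510 and 0.018. Without H3 the correlation was above 0 in 15 of 15 aerocyte pairs (the lowest at 0.015), 4 of 6 general capillary pairs and 13 of 24 mixed pairs. Without H3, Car4 followed Tbx2 (r = 0.968) and also Hpgd (r = 0.955), whereas Apln and Kit ran in opposite directions (r = -0.916).

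The 5 genes whose levels were most like Car4 over the 8 libraries were Selenop (Pearson r = 0.999), Pam (0.997), Foxf1 (0.993), Zrsr1 (0.993) and Cd24a (0.991), and without H3 their correlations were 0.944 to 0.990. For Gpihbp1 they were Pnrc2 (0.998), Card10 (0.998), the venous receptor kinase Ephb4 (0.997), Pcnx (0.997) and Rgs3 (0.997), with 0.972 to 0.984 without H3. Over the 8 libraries, 509 tested genes exceeded a correlation of 0.95 with Car4 and 1493 with Gpihbp1. The part of H3 in these numbers was not tested.

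Further markers of the subtypes, listed by hand with earlier results of these data known, extended the comparison. All 11 further aerocyte genes were tested and had lower means in endFoxf1+/- TECs, with a median log2 difference of -1.28 (-0.53 without H3), against -1.06 (-0.10 without H3) for the pan-endothelial markers and -0.17 (0.01 without H3) for all tested genes. An unadjusted p under 0.05 was found for 4 of the 11, and 3 did not overlap between the groups (5 and 4 without H3), where the shares of all tested genes were 2.77% and 2.31% (2.35% and 2.62% without H3). All 9 further general capillary genes also had lower means, with a median of -1.22 (-0.23 without H3), and 1 of 9 had an unadjusted p under 0.05 and 0 were separate (0 and 0 without H3), against the same shares. Relative to the endothelial markers the medians were -0.16 for the 11 aerocyte and -0.11 for the 9 general capillary genes. On that scale 0 of the 11 aerocyte genes were separate, and 3 were without H3 (Cdkn2b, Rprml and Sirpa, the last named after its values were seen), all lower. The shares of all tested genes, endothelial or not, were 0.0869% and 2.02%. Of the 9 general capillary genes, Glp1r, the receptor for glucagon-like peptide 1, named after its values were seen, was separate and lower (-0.61, and -0.67 without H3; exact permutation p = 0.0286 for each), and without H3 the chemokine gene Cxcl12, also named after its values were seen, was separate and higher (0.82, exact permutation p = 0.0571), against 8.19% of all tested genes.

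The 3 further aerocyte genes with the smallest p were Cdkn2b, Fibin and Rprml. Cdkn2b, an inhibitor of cyclin-dependent kinases 4 and 6, was 28.2, 49.6, 78.2 and 44.8 TPM in C1 to C4 and 15.4, 15, 1.66 and 4.19 TPM in H1 to H4, with no overlap (log2 difference -2.63, SE 0.60, exact permutation p = 0.0286, limma adjusted p = 0.790; -2.12 without H3). Fibin, a secreted protein first described in fin development, was 49.0, 94.7, 113 and 171 TPM in controls and 21.5, 54.8, 3.54 and 19.2 TPM in H1 to H4, where H2 exceeded C1 (-2.42, SE 0.69, exact permutation p = 0.0571; -1.74 without H3). Rprml, a relative of the cell cycle regulator reprimo, was 17.9, 18.2, 38.7 and 30.4 TPM in controls and 13.7, 14.3, 0.427 and 1.38 TPM in H1 to H4, with no overlap (-2.30, SE 0.76, exact permutation p = 0.0286; -1.68 without H3). Relative to the endothelial markers these 3 genes differed by -1.52, -1.30 and -1.19, with overlap in each (exact permutation p = 0.0571, 0.0857 and 0.0857), and without H3 by -1.95, -1.58 and -1.51 (exact permutation p = 0.0286, 0.0857 and 0.0286). Of the further general capillary genes, the lipid droplet protein Hilpda was 398, 459, 454 and 409 TPM in controls and 319, 439, 73.9 and 109 TPM in H1 to H4 (-1.22, SE 0.52, exact permutation p = 0.0857; -0.79 without H3), and relative to the endothelial markers its difference was -0.10, or -0.62 without H3, with overlap.

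**Figure D5:**
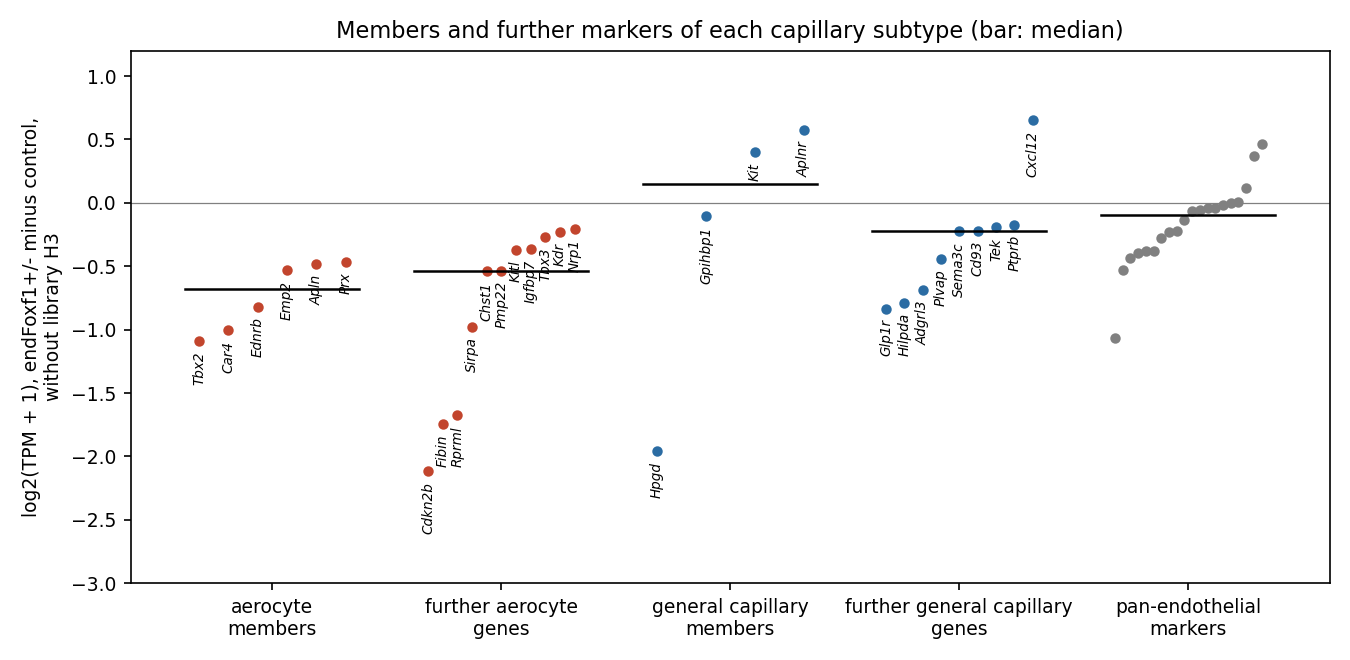
Difference in mean log2(TPM + 1) between endFoxf1+/- and control libraries without H3, for the members, for further aerocyte (red) and general capillary (blue) genes and for 20 pan-endothelial markers (grey), with a bar at the median of each list. The aerocyte lists lie wholly below 0 with medians of -0.68 and -0.53, the general capillary lists have medians of 0.15 and -0.23 with Hpgd as the lowest gene, and the median of the pan-endothelial markers is -0.10.

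Of 13 ligands, receptors, enzymes and transporters that act with the members, 11 were tested, 8 with a lower and 3 with a higher mean, none with an unadjusted p under 0.05 (background 5.59% in either direction), at a median log2 difference of -0.25 (-0.13 without H3). Apela, the other ligand of the apelin receptor, was listed at 0 in 7 libraries and at 0.058 TPM in H3. Edn1, a ligand of Ednrb, was 320, 169, 103 and 91.7 TPM in C1 to C4 and 125, 101.4, 4.28 and 93.1 TPM in H1 to H4, with overlapping groups (-1.59, SE 0.94, exact permutation p = 0.229; -0.50 without H3). Kitl, the Kit ligand and itself an aerocyte gene, was 196, 229, 277 and 328 TPM in controls and 214, 191, 28.6 and 180 TPM in H1 to H4 (-1.06, SE 0.59, exact permutation p = 0.0571; -0.37 without H3), and relative to the endothelial markers it differed by 0.06, or -0.21 without H3.

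Lpl, the lipase bound by Gpihbp1, had a level near that of Aplnr, with means of 55.3 ± 32.4 and 50.3 ± 25.7 TPM in overlapping groups (SD, n = 4 each; log2 difference -0.08 with and without H3, 95% interval -1.19 to 1.02 with it). Around Hpgd, the prostaglandin transporter Slco2a1, which brings its substrate into the cell, was 765, 915, 837 and 922 TPM in controls and 744, 954, 50.0 and 292 TPM in H1 to H4. H1 and H2 were near or above the controls, unlike for Hpgd, and the difference was -1.42 (SE 0.79, exact permutation p = 0.229), or -0.53 without H3. The inducible cyclooxygenase Ptgs2 was 4.77 to 14.3 TPM in controls and 4.39 to 20.4 TPM in endFoxf1+/- libraries (0.06, 95% interval -0.99 to 1.11; -0.26 without H3).

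Other endothelial programs gave a frame for these values. The 10 arterial markers had a median log2 difference of -0.75 (0.05 without H3), the 8 venous markers -0.78 (0.03 without H3) and the 9 tip and sprout markers -0.19 (0.21 without H3), so none of the 3 lists had a lower median once H3 was left out. Lymphocyte markers summed to 17.1 to 20.8 TPM in controls and 10.3 to 69.6 TPM in endFoxf1+/- libraries, and erythroid and platelet markers to 998 to 2044 and 423 to 986 TPM.

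The sequence before the start of the genes was examined because Car4 and Hpgd were lower together, and it is shown for these 2. RefSeq promoters (GRCm38.p6) were at hand for 7 of 10 members, not for Tbx2, Aplnr and Gpihbp1. The 250 bases before the RefSeq start are printed 5′ to 3′ on the plus strand, Car4 at chr11:84957504-84957753 and Hpgd at chr8:56294302-56294551, with capitals for matches to the ETS core AGGAAG on either strand, of which Hpgd holds 2 that overlap in the reverse direction and Car4 none.
Car4: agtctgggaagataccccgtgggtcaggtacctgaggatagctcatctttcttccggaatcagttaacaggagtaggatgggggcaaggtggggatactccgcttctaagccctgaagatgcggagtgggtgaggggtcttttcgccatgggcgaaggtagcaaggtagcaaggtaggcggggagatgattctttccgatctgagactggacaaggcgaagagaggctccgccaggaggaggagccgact
Hpgd: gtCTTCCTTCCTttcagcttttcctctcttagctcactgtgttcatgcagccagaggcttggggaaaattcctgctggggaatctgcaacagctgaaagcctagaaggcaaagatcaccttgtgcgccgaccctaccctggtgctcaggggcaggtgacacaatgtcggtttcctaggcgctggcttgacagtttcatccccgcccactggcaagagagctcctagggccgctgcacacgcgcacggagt
Their GC content was 56.4% and 56.8%. Over the 7 members, the forkhead core TAAACA was found in 0 (13.5% of all genes hold it in any promoter of this length), AGGAAG in 3, Apln, Kit and Hpgd (32.3%), the SOX core ACAAAG in 1, Apln (18.6%), and the T-box core GGTGTG in 0 (18.3%), searched on both strands. A match describes letters in this window and is not evidence of binding, and the absence of one says nothing about sites elsewhere.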

How the data were processed

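RNA-seq of CD45-CD31+ cells sorted from LLC lung tumors was analysed for 4 control and 4 endFoxf1+/- libraries, grouped by the genotype label and numbered in the order of their labels. The authors deposited TPM, 1 value per gene symbol and library, which are normalized for transcript length and sum to 1000000. The submitters' processing notes name TopHat, Cufflinks, Subread and DESeq2 and the build GRCm38 (mm10), without versions or roles, and the annotation is not given in the sources used here. Nextera XT, the library kit, does not mark strand. Since TPM hold no depth, counting error is unknown and errors are SDs or SEs over libraries.

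Values were taken as log2(TPM + 1). Of 33641 symbols, the 14964 that reached 1 TPM in 4 or more libraries were fitted with limma 3.58.1 (eBayes with an intensity trend) in R 4.3.3 and adjusted by Benjamini-Hochberg at a threshold of 0.05. For single genes, all 70 assignments of the libraries were enumerated in a two-sided permutation test (smallest p 0.0286). Without 1 library there are 35 assignments and the same smallest p. Fold changes on this scale understate those of low genes. The step was tested on simulated data. DESeq2, named by the study, needs read counts and was not repeated.

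Named genes were the 10 members, Foxf1, Pecam1, the partners Apela, Edn1, Kitl, Lpl, Slco2a1 and Ptgs2, up to 3 genes per list and direction with the smallest unadjusted p under 0.05, and the 5 genes most correlated with Car4 and with Gpihbp1. Genes outside this rule are named as chosen after their values were seen. Members and lists were chosen with earlier results of these data known. Coordinates are from GENCODE vM21, which holds 32159 of the symbols and all 10 members. Figures were drawn with matplotlib 3.10.9. Alternatives were other pseudocounts, normalizations, filters and weights, libraries left out, and values relative to the endothelial markers.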

Additional observations from a re-analysis of the deposited data

Results flagged for a closer look

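Within the endFoxf1+/- group, H3 lay further from the other 3 libraries than Dixon's 95% limit for 4 samples allows for 4 of the 30 sets of 4 values examined. Chance flags about 1 in 20 independent sets, but these 4 all rest on H3 and on related genes, 1 of them being a mean that holds others, so their number cannot be read against that rate. On the log2(TPM + 1) scale, Ednrb was 3.30 in H3 and 6.61 to 6.86 in the other 3 libraries. Tbx2 was 1.74 in H3 against 4.81 to 5.42. Kit was 3.23 in H3 against 7.59 to 8.42. The mean of the aerocyte members was 3.85 in H3 against 7.04 to 7.55. The same library held 5.92% of the control level of pan-endothelial markers and 91.2 TPM of Ptprc, against 2.94 to 9.13 TPM in controls, and the part of these in the low values was not tested.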

How the results depend on the processing

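The 14964 tested genes held 0 calls at an adjusted p under 0.05 in the limma fit, 148 with array weights (48 lower and 100 higher), which weighted H3 at 0.0643 and H4 at 0.178, and 2 without H3 and H4. Leaving out 1 library in turn gave 0 to 1, the 1 call arising without C1. Hpgd was the 1 member called under any alternative, with array weights (log2 difference -1.77, adjusted p = 0.0286, range over its alternatives 0.0286 to 0.971). The 6 aerocyte genes, Hpgd and Foxf1 kept a lower mean under every alternative run. Of the others, Aplnr was higher by 0.78 with array weights, 0.57 without H3, 1.002 without H3 and H4, 0.77 relative to the endothelial markers and 0.75 as their ratio without a pseudocount. In the same settings Kit was at 0.44, 0.40, 0.59, 0.33 and 0.32, and Gpihbp1 at 0.16, -0.10, 0.30, 0.082 and 0.10. With 1 library left out in turn, Aplnr ranged from -0.84 to 0.57 and Kit from -1.33 to 0.40, lowest without H2 and highest without H3. Without H3 and H4 the mean of the general capillary members (0.10) and the pan-endothelial mean (0.11) were also higher than control, and without Hpgd the balance was -0.87. The cause of these changes was not tested.

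With unadjusted p under 0.05, Aplnr was counted as higher with array weights and without H3 and H4, where 2866 of 14964 and 1782 of 14578 tested genes were under 0.05 in either direction. In the lower direction Hpgd was counted in every setting, and Car4, Tbx2 and Ednrb were not when C3 or C4 was left out. Over these settings the tested genes under 0.05 in either direction ranged from 416 of 14674 without C2 to 2866 of 14964 with array weights. Car4 was also not counted without C1 or H4, nor Ednrb without C2, with a pseudocount of 0.1, quantile normalization, either other filter or no trend. The log2 difference of Car4 ranged from -2.31 to -1.01 and that of Hpgd from -3.23 to -1.96 with 1 library left out, the smallest without H3, and was -0.73 and -1.49 without H3 and H4. The balance ranged from -0.53 to -0.16 with 1 library left out, the smallest without H2, and was -0.70 without H3 and H4. The median of all tested genes moved from -0.17 to -0.05 with quantile normalization, -0.01 with scaling by the median ratio and 0.13 with array weights. No paired analysis was possible because the labels give the 2 groups no shared replicate numbers, and the numbers 1 to 4 used here only name the libraries in the order of their labels. The unknown depth, 4 libraries per group and the low endothelial level of H3 and H4 limit these comparisons.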
